A study of Homo sapiens with 31 samples.

Results

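The libraries compared here are the 2 labelled KHSRP knockout with 6 h of actinomycin D and the 2 labelled KHSRP knockout with 0 h, 4 of the 31 samples of the study. They were chosen by these labels alone. The study used PANC-1 cells, a long-established line from a human pancreatic carcinoma, and its actinomycin D set holds 20 libraries of polyA RNA. In that set 10 libraries carry the knockout label (KO) and 10 the label NC with a wild-type genotype. Each genotype has 2 libraries for every labelled time of 0, 2, 4, 6 and 8 h under the drug. The design asks how long transcripts last once transcription is blocked. The labels name no clone and leave unsaid whether a pair of replicates was grown separately. The p-values below thus rest on the spread of library pairs, and that spread may be technical.

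Actinomycin D binds DNA and blocks elongation by RNA polymerases, so that the RNA left at later times is what has not yet been degraded. Immediate early transcripts such as FOS and MYC carry AU-rich elements that call in decay factors, and they are among the shortest-lived messenger RNAs in animal cells. Transcripts of ribosomal proteins and of the respiratory chain are among the long-lived ones. KHSRP binds AU-rich transcripts and helps to recruit the machinery that degrades them.

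The short-lived transcripts stood higher, not lower, in the libraries labelled 6 h. FOS, a subunit of the AP-1 transcription factor, had 1669 and 1780 counts in the KO libraries labelled 6 h, against 24 and 10 counts in the KO libraries labelled 0 h. MYC, a transcription factor of cell growth, had 1708 and 1931 counts in KO 6 h libraries, against 168 and 128 counts in KO 0 h libraries. Both 6 h libraries lay above both 0 h libraries for either gene. The time labels of these libraries may therefore be wrong, and a group is called here by its label only. The deposited molecule values give another reading: their sums in KO 6 h lay below those of the KO libraries labelled 0, 2 and 4 h and above those labelled 8 h. A level labelled 6 h is not read here as RNA that survived 6 h of the drug.

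KHSRP itself, the gene named by the knockout label, lay on chromosome 19 from 6413113 to 6424822, minus strand, in the deposited hg19 tables. It had 3602 and 3638 counts in KO 6 h libraries, against 2904 and 2774 counts in KO 0 h libraries. Its level was 138 ± 4.7 CPM (counts relative to library size, after TMM scaling) in KO 6 h and 144 ± 7.4 CPM in KO 0 h (SD, n = 2 each). The log2 change was -0.06 (SE 0.05, adjusted p = 0.296), 0.59 when counts were scaled to ribosomal protein genes and 0.20 by plain library size. Its level was 439 ± 1.6 CPM in the NC 6 h libraries and 446 ± 9.6 CPM in the NC 0 h libraries (SD, n = 2 each). The libraries labelled KO thus held less KHSRP than those labelled NC at the same labelled times, and none of the 4 was near 0.

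The 4 libraries held 22006693 and 23458247 counts at KO 6 h, and 21713285 and 19177934 counts at KO 0 h. They differed in more than single genes. A count was seen for 20190 and 20480 genes in KO 6 h, against 19214 and 18913 genes in KO 0 h. The counts assigned to genes were 43.9% and 44.0% of the reads behind the deposited reads-per-million values in KO 6 h, against 46.1% and 46.2% in KO 0 h. The 10 most abundant genes took 4.37% and 4.43% of the counts in KO 6 h, against 5.20% and 5.22% in KO 0 h. The deposited molecule values, for which each library has its own line to the authors' RPKM, gave sums that can be set against the highest of the 20 libraries. They reached 53.2% and 50.1% of it in KO 6 h, against 100% and 91.4% in KO 0 h, and 24.9% and 25.9% in the KO libraries labelled 8 h. The part of these library differences in the gene results was not tested.

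The promoters of 4 genes that were higher at KO 6 h are given as examples only. FOS, EGR1 and DUSP1 are among the 10 largest rises. JUNB is not, and is the AP-1 gene whose pattern over the KO libraries was among those most like that of MYC. Each line gives the 150 bases before the annotated start of transcription, from RefSeq (GRCh38.p14), in the direction of the gene, at chr14:75278678-75278827 (plus strand), chr5:138465329-138465478 (plus strand), chr5:172771196-172771345 (minus strand) and chr19:12791336-12791485 (plus strand). Capitals mark the letters TGACG on either strand (the core of the cAMP response element bound by CREB and ATF proteins), TATAAA on either strand (the letters of a TATA box) and the CArG box on either strand, bound by serum response factor.
FOS: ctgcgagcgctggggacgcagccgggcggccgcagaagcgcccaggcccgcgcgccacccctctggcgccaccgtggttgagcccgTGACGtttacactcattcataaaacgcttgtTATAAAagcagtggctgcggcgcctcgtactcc
EGR1: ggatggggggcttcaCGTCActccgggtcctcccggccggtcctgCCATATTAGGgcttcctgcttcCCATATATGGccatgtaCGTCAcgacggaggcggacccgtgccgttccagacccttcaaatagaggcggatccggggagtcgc
DUSP1: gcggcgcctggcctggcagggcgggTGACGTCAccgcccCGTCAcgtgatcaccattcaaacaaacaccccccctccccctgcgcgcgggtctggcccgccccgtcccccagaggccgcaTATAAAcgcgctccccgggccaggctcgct
JUNB: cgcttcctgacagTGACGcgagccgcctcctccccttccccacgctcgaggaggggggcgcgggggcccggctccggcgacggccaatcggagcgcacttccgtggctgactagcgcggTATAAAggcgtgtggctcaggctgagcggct
The EGR1 window held 2 CArG boxes that begin 105 and 83 bases before the start. The FOS, DUSP1 and JUNB windows held a TATAAA that begins 33, 30 and 31 bases before it. In DUSP1, TGACG on opposite strands overlaps to form TGACGTCA, the full palindrome of the element. Over windows of this length, TGACG was found in 18 of 34 start sites of the immediate early list (52.9%, 26 genes matched) and in 19.6% of 17926 start sites of the genes tested. It was found in 19.4% of the 1945 windows of the genes that rose by a log2 change of at least 1, a share close to that of all genes tested. TATAAA was found in 6 of the 34 immediate early windows (17.6%), in 4.73% of those of the genes that rose by at least 1 and in 3.80% of those of the genes tested. The CArG box was found in 3 of the 34 (8.82%), in 0.977% and in 0.736% of the same sets. These matches describe letters in a window and say nothing of which factor was bound.

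Of 17715 genes tested between KO 6 h and KO 0 h, 3495 were higher (19.7%) and 4958 were lower (28%) at an adjusted p under 0.05. Large changes were mostly upward after TMM scaling: 1784 genes (10.1%) were higher by a log2 change of at least 1, and 154 (0.869%) were lower by as much. The median change of all genes tested was -0.09. That balance depends on how libraries are scaled and on which genes and libraries enter the fit. With the counts scaled to ribosomal protein genes the median was 0.53 and 9236 genes were higher against 100 lower; by plain library size the median was 0.14 with 4886 higher and 2521 lower. On the deposited molecule scale the median was -0.51, with 1776 genes higher and 6975 lower. Large changes were mostly downward on that scale, with 1233 genes higher and 2495 lower by at least 1. The counts of members called in a list depend on the scaling too. With counts scaled to ribosomal protein genes 31 FAK and focal adhesion genes were higher and 0 lower, and likewise 21 and 0 genes of sterol and fatty acid synthesis, 17 and 1 G1/S genes, 16 and 0 interferon genes, 12 and 0 epithelial genes and 10 and 1 mesenchymal genes, and also 10 and 1 nuclear genes of oxidative phosphorylation. On that scale 22 of the genes named here, all lower on the main scale, lost their call, among them PKM at -0.06 (adjusted p = 0.0695), PDIA6 at -0.03 (adjusted p = 0.633), HSP90AA1 at -0.05 (adjusted p = 0.224) and HSPD1 at -0.02 (adjusted p = 0.719). A fit of the 10 KO libraries alone gave 4150 higher and 3888 lower, and a fit of the 4 libraries alone 4278 and 3876. With no filter on low counts 3968 genes were higher and 3640 lower. In these bulk samples fewer cells of a type and less RNA per cell cannot be told apart.

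**Figure D1:**
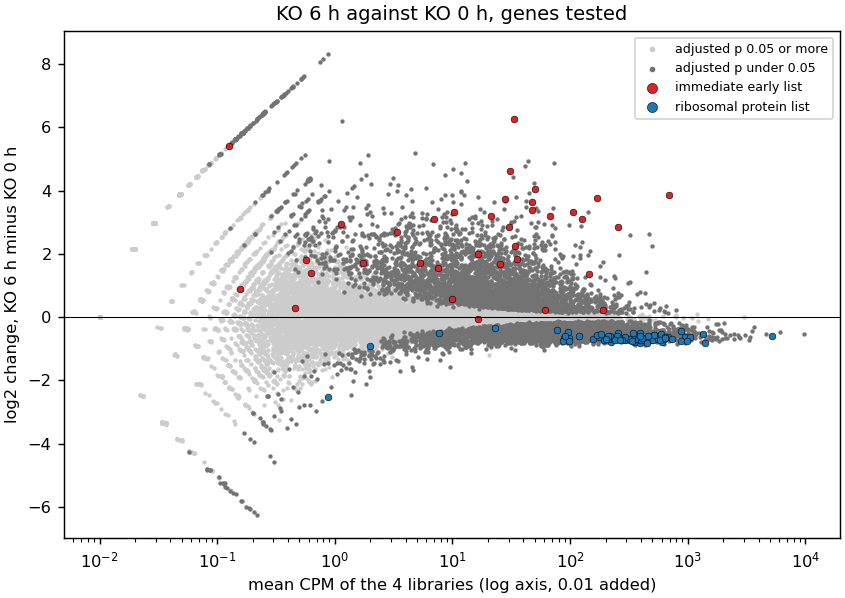
Each point is a gene tested, with its mean CPM over the 4 libraries on a log horizontal axis and its log2 change of KO 6 h minus KO 0 h on the vertical axis. Members of the immediate early list (red) lie mostly high above 0, up to 6.25 for FOS, and ribosomal protein genes (blue) lie below 0 with a list median of -0.67.

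The 10 largest rises were led by early-response and stress genes. The rule asked for at least 10 CPM at KO 6 h and no overlap with the KO 0 h libraries. FOS stood at 65.4 and 65.7 CPM in KO 6 h, against 1.15 and 0.537 CPM in KO 0 h, a log2 change of 6.25 (SE 0.16, adjusted p = 4.19e-30). DDIT4, an inhibitor of mTORC1 signalling, stood at 84.7 and 86.0 CPM in KO 6 h, against 1.77 and 3.87 CPM in KO 0 h (4.94, SE 0.21, adjusted p = 5.06e-18). DUSP1, a phosphatase that switches off MAP kinases, stood at 140.3 and 144 CPM in KO 6 h, against 6.15 and 3.33 CPM in KO 0 h (4.89, SE 0.18, adjusted p = 1.59e-16). For these genes the KO 6 h libraries agree closely with each other, while the KO 0 h levels are low and spread more in proportion.

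NFKBIA, which holds NF-kappaB in the cytoplasm, stood at 84.5 and 74.4 CPM in KO 6 h, against 2.19 and 3.60 CPM in KO 0 h (log2 change 4.79, SE 0.20, adjusted p = 1.31e-22). EGR1, a zinc finger factor induced by growth signals, stood at 61.5 and 57.5 CPM in KO 6 h, against 2.53 and 2.31 CPM in KO 0 h (4.61, SE 0.14, adjusted p = 6.51e-27). ELF3, an epithelial ETS factor, stood at 26.3 and 23.0 CPM in KO 6 h, against 0.811 and 0.859 CPM in KO 0 h (4.88, SE 0.23, adjusted p = 8.66e-21). No KO 6 h library overlapped the KO 0 h range for any of them, which the rule that named them required. The other 4 rose by 4.83 for CHAC1, a glutathione-degrading enzyme induced by stress, 4.67 for MIR23AHG, the host transcript of the miR-23a cluster, 4.57 for NUAK2, an AMPK-related kinase, and 4.50 for CSRNP1, a nuclear protein induced by axin. MYC stood at 66.9 and 71.3 CPM in KO 6 h, against 8.01 and 6.87 CPM in KO 0 h, a log2 change of 3.21 (SE 0.12, adjusted p = 1.72e-24).

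**Figure D2:**
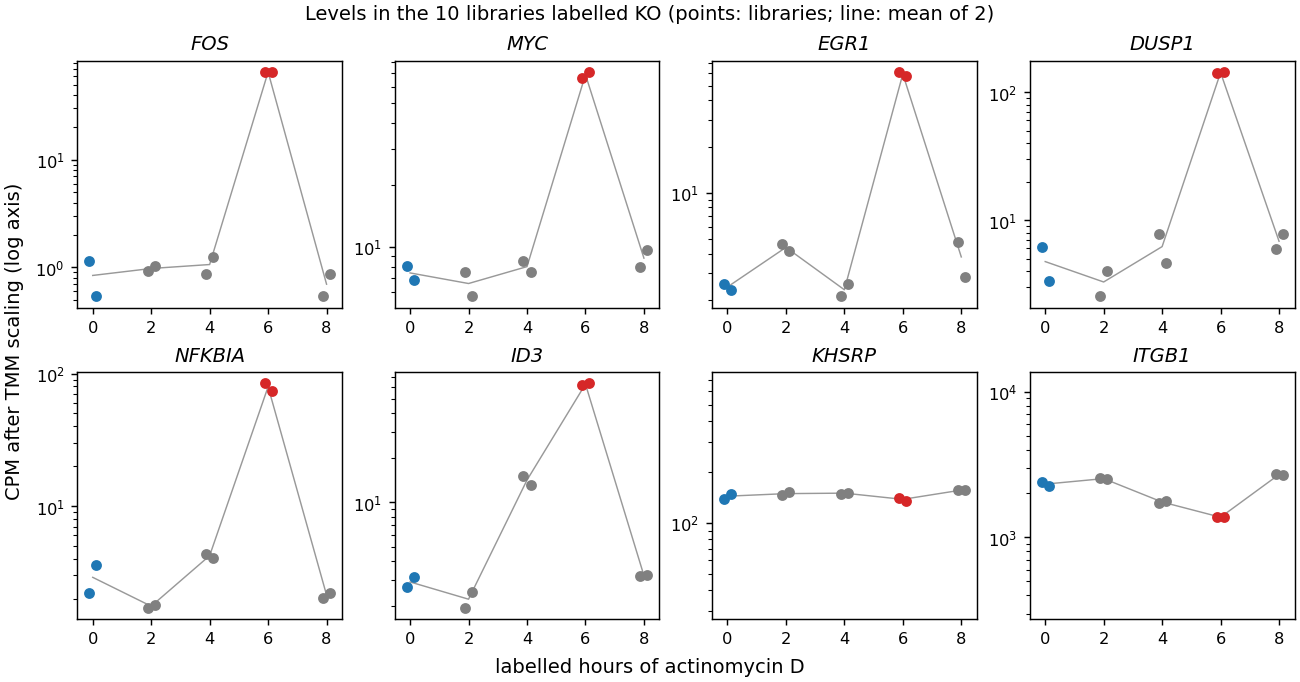
CPM on log axes against labelled hours in the 10 KO libraries, with 6 h in red, 0 h in blue and a line through the mean of 2 libraries. FOS, MYC, EGR1, DUSP1, NFKBIA and ID3 stand highest at the 6 h label, KHSRP stays between 138 and 156 CPM in the group means, and ITGB1 is lowest at 6 h.

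After TMM scaling the falls were much smaller than the rises, also for the 10 largest among genes that reached 10 CPM at KO 0 h. ZNF460, a zinc finger gene, stood at 5.36 and 4.21 CPM in KO 6 h, against 16.5 and 11.8 CPM in KO 0 h (log2 change -1.57, SE 0.23, adjusted p = 2.47e-07). MMP1, interstitial collagenase, stood at 39.5 and 39.0 CPM in KO 6 h, against 81.1 and 79.2 CPM in KO 0 h (-1.03, SE 0.11, adjusted p = 5.25e-11). PCBD1, a dehydratase that recycles the cofactor of aromatic amino acid hydroxylases, stood at 22.7 and 21.6 CPM in KO 6 h, against 41.6 and 49.5 CPM in KO 0 h (-1.04, SE 0.10, adjusted p = 5.16e-12). Both KO 6 h libraries lay below both KO 0 h libraries for these 3 genes, which the rule that named them required. The other 7 were LOC110467533 at -1.34, MSRA at -1.16, CCDC78 at -1.15, AMH at -1.13, SLC25A25-AS1 at -1.10, TMEM231 at -1.01 and RPS10P19 at -1.01. RPS10P19 is a processed pseudogene of RPS10, and the 2 can share reads. SLC25A25-AS1 is an antisense RNA, and since no source used here says whether counting used strand, its reads cannot be told apart from those of its partner gene.

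Early-response genes moved together. Of 35 tested members of an immediate early list, 30 were higher and none lower at KO 6 h, with a median log2 change of 2.84 beside -0.09 for all genes tested. Both KO 6 h libraries lay above both KO 0 h libraries for 31 of the 35, where 30.4% of all genes did so. JUNB, an AP-1 subunit, stood at 95.0 and 93.1 CPM in KO 6 h, against 5.77 and 5.64 CPM in KO 0 h (4.04, SE 0.13, adjusted p = 6.23e-26). The list took 0.451% and 0.449% of all counts in KO 6 h, against 0.0641% and 0.0657% in KO 0 h. EGR2, a relative of EGR1, was called on 8 and 4 counts in KO 6 h and 0 in either KO 0 h library, and the call was lost when KO 6 h replicate 1 or either KO 0 h library was left out.

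Feedback inhibitors of growth factor signalling behaved in the same way. Of 20 tested members of an ERK feedback list, 19 were higher and none lower, with a median of 2.13. SPRY2, which restrains receptor tyrosine kinase signalling, rose by 3.43 (SE 0.28, adjusted p = 2.39e-11), and DUSP6, a phosphatase of ERK, by 3.33 (SE 0.30, adjusted p = 7.77e-12). All 12 tested Kruppel-like factors were higher, with a median of 2.01. KLF4 stood at 41.1 and 42.0 CPM in KO 6 h, against 3.82 and 2.85 CPM in KO 0 h (3.63, SE 0.15, adjusted p = 1.99e-22); KLF2 rose by 5.18 and KLF5 by 3.43, on low counts at KO 0 h. Of 15 tested targets of BMP, TGF-beta and Notch signalling, 13 were higher and none lower, with a median of 2.23. ID3, an inhibitor of helix-loop-helix factors, stood at 61.9 and 63.6 CPM in KO 6 h, against 2.67 and 3.11 CPM in KO 0 h (4.44, SE 0.16, adjusted p = 2.96e-24). HES1, a Notch target, rose by 4.00 and SNAI1, a repressor of E-cadherin, by 3.66. The medians of these 4 lists stayed above 0 under every scaling tried, with 2.67, 2.00, 1.79 and 2.61 on the deposited molecule scale.

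Genes of the circadian clock were higher in 9 of 13 cases and lower in none, with a median of 1.06. BHLHE40, a repressor of the clock, stood at 131 CPM in each KO 6 h library, against 11.1 and 12.7 CPM in KO 0 h (3.46, SE 0.11, adjusted p = 5.74e-26). NR1D1 rose by 1.86 and PER1 by 1.80, both parts of the negative limb of the clock. Genes of chromosome 19 with a ZNF symbol, most of which encode KRAB zinc finger repressors, were higher in 129 and lower in 4 of 229 tested, with a median of 0.99 (0.68 on the molecule scale). Their summed level was 3165 and 3122 CPM in KO 6 h, against 1911 and 1940 CPM in KO 0 h, so the group as a whole stood apart between the labels. ZNF14 had 139 and 157 counts in KO 6 h, against 10 and 2 counts in KO 0 h (4.20, SE 0.62, adjusted p = 2.38e-07), and ZNF792 rose by 3.29. ZNF460, at -1.57, was among the 4 that were lower. The list was taken by symbol, so it also holds some antisense and divergent transcripts and pseudogenes. Members of the zinc finger family resemble each other in sequence, and shared reads could shift counts between them.

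**Figure D3:**
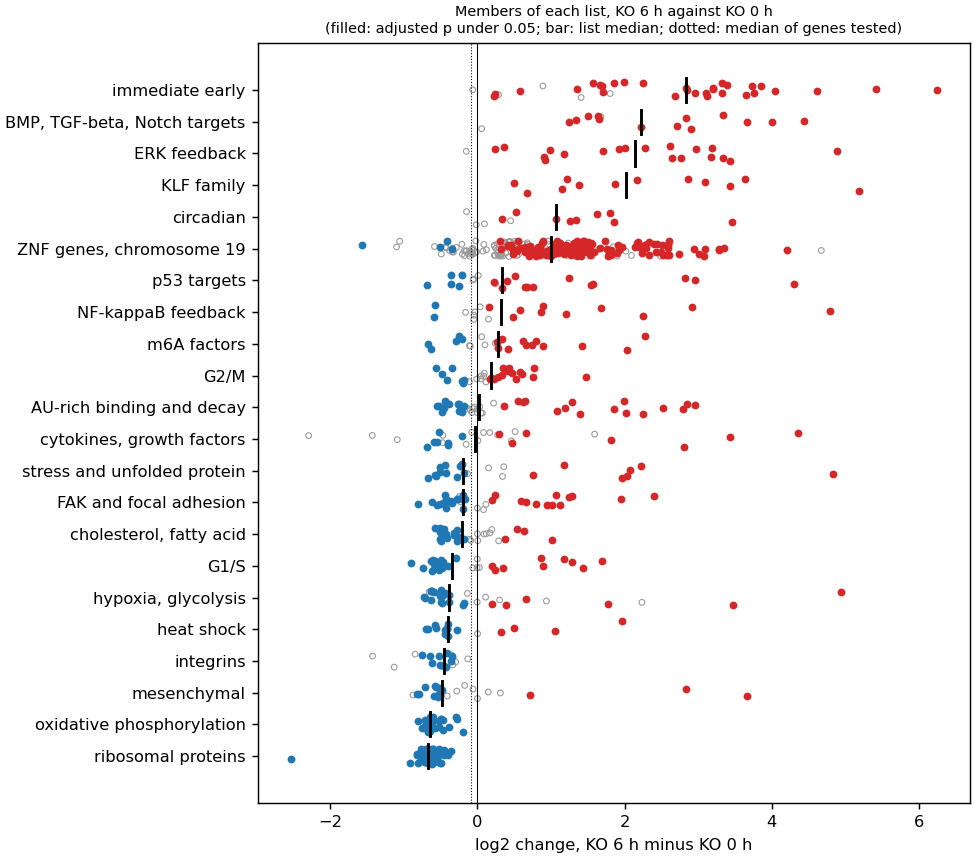
Log2 changes of KO 6 h minus KO 0 h for tested members of 22 gene lists, filled where the adjusted p was under 0.05, with list medians as bars and the median of all genes tested as a dotted line. Immediate early genes lie highest, with a median of 2.84, and ribosomal protein genes lowest, with a median of -0.67.

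Other lists held members called in both directions, and their counts are given beside 19.7% higher and 28% lower among all genes tested. Among NF-kappaB feedback genes 10 of 18 were higher and 2 lower, with a median of 0.32 that turned to -0.08 on the molecule scale. BCL3 rose by 2.91 and NFKBIZ by 2.24, both nuclear partners of NF-kappaB. Among cytokines and growth factors 7 of 28 were higher and 7 lower (25% each), shares close to those of all genes tested. CXCL2, a neutrophil chemokine, rose by 2.81 (SE 0.57, adjusted p = 5.47e-05), while PLAUR, the urokinase receptor, fell by 0.69 on the log2 scale. TNF and CSF2 were called at KO 6 h on 14 and 46 and on 49 and 39 counts, against at most 4 counts in a KO 0 h library. The call of CSF2 was lost without any one of the 4 libraries, and that of TNF without KO 6 h replicate 2 or KO 0 h replicate 2.

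Among p53 targets 13 of 23 were higher and 5 lower, with a median of 0.33 that turned to -0.07 on the molecule scale. SESN2, a stress-induced inhibitor of mTORC1, stood at 24.1 and 26.3 CPM in KO 6 h, against 0.859 and 1.72 CPM in KO 0 h (4.30, SE 0.39, adjusted p = 1.80e-11). TP53I3 was lower at -0.68. In the BCL2 family 6 of 18 were higher and 5 lower. MCL1, a short-lived survival protein, stood at 409.9 and 414 CPM in KO 6 h, against 106 and 107 CPM in KO 0 h (1.95, SE 0.05, adjusted p = 1.06e-29). BMF and BBC3, which oppose survival, rose by 4.21 and 2.82, and BAD, which also opposes it, fell by 0.68 on the log2 scale. In the network around MYC 4 of 12 were higher and 2 lower; MXD1 rose by 1.40 and MGA by 0.91, and MXD3 fell by 0.71 on the log2 scale.

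Stress and metabolic lists also had calls in both directions. Among genes of the integrated stress and unfolded protein responses 7 of 24 were higher and 12 lower. XBP1 (2.22) and PPP1R15A (2.07), both regulators induced by stress, were higher, and PDIA6, a folding enzyme of the endoplasmic reticulum, stood at 301 and 303 CPM in KO 6 h, against 473 and 492 CPM in KO 0 h (-0.68, SE 0.04, adjusted p = 6.80e-19). Among heat shock genes 4 of 16 were higher and 11 lower, with a median of -0.40. DNAJB1, an inducible co-chaperone, stood at 222 and 233 CPM in KO 6 h, against 61.4 and 55.2 CPM in KO 0 h (1.96, SE 0.07, adjusted p = 3.28e-24), and HSF2 rose by 1.06. The abundant chaperones HSP90AA1 and HSPD1 were lower, at -0.70 and -0.67. Among hypoxia and glycolysis genes 6 of 30 were higher and 17 lower, with a median of -0.39. ADM, a peptide hormone precursor, rose by 3.47 and PFKFB4 by 1.77. PKM, pyruvate kinase, stood at 2489 and 2529 CPM in KO 6 h, against 4128 and 4086 CPM in KO 0 h (-0.71, SE 0.03, adjusted p = 3.82e-23), and TPI1 was lower at -0.72. The medians of these 3 lists turned to 0.45, 0.25 and 0.26 when counts were scaled to ribosomal protein genes. Among genes of sterol and fatty acid synthesis 4 of 28 were higher and 15 lower; INSIG1, a protein of sterol feedback, rose by 1.01.

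Housekeeping groups fell as blocks on the main scale. All 77 ribosomal protein genes and all 30 nuclear genes of oxidative phosphorylation were lower at KO 6 h, with medians of -0.67 and -0.64, and both KO 6 h libraries lay below both KO 0 h libraries for each of them, where 40.2% of all genes did so. On the molecule scale the medians were -1.20 and -1.14, and scaling to ribosomal protein genes, which sets their own sum equal by construction, turned the median of the oxidative phosphorylation list to 0.01. Ribosomal protein genes took 3.16% and 3.13% of the counts in KO 6 h, against 4.09% and 4.17% in KO 0 h. RPS24 stood at 325 and 322 CPM in KO 6 h, against 572 and 576 CPM in KO 0 h (-0.83, SE 0.04, adjusted p = 4.28e-21). RPS10 had at most 56 counts in any of the 4 libraries and has near-identical copies in the genome, so its value is uncertain. ATP5F1B, the catalytic beta subunit of ATP synthase, COX7C and NDUFV1 were lower at -0.73, -0.80 and -0.75.

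The study's title names FAK signalling, which runs from integrins at focal adhesions. Of 19 tested integrin genes none was higher and 10 were lower, with a median of -0.46; with counts scaled to ribosomal protein genes 5 were higher and 1 lower, with a median of 0.19. ITGB1, the common beta subunit, stood at 1375 and 1373 CPM in KO 6 h, against 2389.5 and 2248.5 CPM in KO 0 h (-0.76, SE 0.03, adjusted p = 3.75e-22). Of 35 FAK and focal adhesion genes 13 were higher and 17 lower. PIK3R1, the regulatory subunit of PI3 kinase, rose by 2.40, and the adaptors BCAR1 and CRKL by 1.95 and 1.28. PARVA, a partner of integrin-linked kinase, fell by 0.81 on the log2 scale. Of 24 targets of SRF and YAP 10 were higher and 11 lower. CCN1, a secreted matrix protein, stood at 1304 and 1292 CPM in KO 6 h, against 94.9 and 84.2 CPM in KO 0 h (3.86, SE 0.06, adjusted p = 1.54e-36), AMOTL2 rose by 3.36, and MYL9, a myosin light chain, fell by 0.77 on the log2 scale. These lists follow the title of the study and are not independent of its samples.

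Cell cycle genes went in both directions. Among G1/S genes 9 of 28 were higher and 15 lower: CDT1, a licensing factor, and CDC25A, a phosphatase of cyclin-dependent kinases, rose by 1.69 and 1.44, and TYMS, thymidylate synthase, fell by 0.74 on the log2 scale. Among G2/M genes 15 of 30 were higher and 7 lower, with a median of 0.18 that turned to -0.25 on the molecule scale. PLK1, a mitotic kinase, stood at 148 and 154 CPM in KO 6 h, against 56.6 and 52.3 CPM in KO 0 h (1.47, SE 0.07, adjusted p = 8.06e-22). Of 33 tested replication histones 1 was higher and 3 lower. The higher one, H3C2, had 10 and 12 counts in KO 6 h and 0 in either KO 0 h library.

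Factors of RNA metabolism, the setting in which KHSRP works, moved in both directions. Of 40 AU-rich binding and decay factors 16 were higher and 13 lower. ZFP36, a decay factor of AU-rich transcripts, stood at 456 and 449 CPM in KO 6 h, against 68.1 and 57.9 CPM in KO 0 h (2.84, SE 0.08, adjusted p = 1.01e-28), and ZC3H12A, an RNase of inflammatory transcripts, rose by 2.79. BTG2, which stimulates deadenylation, rose by 2.95 on 64 and 40 counts in KO 6 h, against 6 and 4 counts in KO 0 h. Of 22 m6A factors 12 were higher and 5 lower, with a median of 0.28 that turned to -0.13 on the molecule scale. The m6A readers YTHDF2 and YTHDF1 rose by 2.28 and 2.03; YTHDF2 stood at 106 and 98.4 CPM in KO 6 h, against 20.2 and 22.1 CPM in KO 0 h (SE 0.11, adjusted p = 3.10e-21). HNRNPC was lower at -0.68. Among splicing regulators 7 of 19 were higher and 7 lower, and the 3 largest rises were the kinases CLK1 (2.10), DYRK1A (1.74) and CLK4 (1.34). Their counts became 19 higher and 0 lower with scaling to ribosomal protein genes, and 5 and 11 on the molecule scale.

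Among 30 long noncoding RNAs, many of them hosts of small nucleolar RNAs, 13 were higher and 9 lower. SNHG3 rose by 1.91 and SNHG12 by 1.80, MIR17HG, the host of the miR-17 cluster, rose by 2.65 on 53 and 31 counts in KO 6 h against 6 and 4 counts in KO 0 h, and MEG3 and DANCR were lower at -0.80 and -0.78. Of 158 tested small nucleolar RNA genes 69 were higher (43.7%) and 2 lower (1.27%), beside 19.7% and 28% of all genes tested. Their median was 2.64, mostly on low counts. Their summed counts without SNORA104 were 3077 and 3188 in KO 6 h, against 1088 and 909 in KO 0 h. After TMM scaling these sums were 120 and 118 CPM, against 51.9 and 48.8 CPM. With SNORA104 they were 144 and 141 CPM, against 87.4 CPM in each KO 0 h library. SNORA104 was the only called member to reach a mean of 10 CPM at KO 6 h. SNORA104, with 595 and 642 counts in KO 6 h and 743 and 719 counts in KO 0 h, was 1 of the 2 that fell (-0.65, SE 0.12, adjusted p = 1.97e-05). Most of these genes lie inside introns of other genes, and counts on them in polyA libraries cannot be told apart from reads of the host's unspliced RNA.

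Of 31 interferon genes 6 were higher (19.4%) and 7 lower (22.6%), near or below the 19.7% and 28% of all genes tested; IRF1 rose by 3.04 (SE 0.21, adjusted p = 8.10e-16) and IFITM2 fell by 0.77 on the log2 scale. Of 21 mesenchymal genes 3 were higher and 10 lower, with SNAI1 and SNAI2, both repressors of epithelial genes, higher by 3.66 and 2.84, and TIMP1 and COL6A1 lower at -0.81 and -0.80. Of 19 epithelial genes 3 were higher (15.8%) and 6 lower (31.6%), also near the shares of all genes. CLDN4, a tight junction protein, rose by 1.06, and the keratin KRT8 was lower at -0.65 (SE 0.03, adjusted p = 1.02e-20), a fall that was not seen when counts were scaled to ribosomal protein genes (0.0011). Lists of markers of other cell types each summed to less than the list of ductal cancer line markers. Of 12 immune markers 6 were at 0 in all 4 libraries, PTPRC, CD3D, CD3E, MS4A1, CD163 and NKG7, and the list summed to 133 CPM in each KO 6 h library, against 202 and 199 CPM in KO 0 h; these sums over marker lists are by plain library size, without TMM scaling. On that scale CD68, which many tumour lines express, made up most of the immune sum, at 129 CPM in each KO 6 h library, against 195 and 193 CPM in KO 0 h. Fibroblast markers summed to 59.0 and 68.0 CPM in KO 6 h, against 48.3 and 52.7 CPM in KO 0 h, with FAP at 0. Acinar markers summed to at most 0.691 CPM and endocrine markers to at most 4.84 CPM in any of the 4 libraries. Of 9 tested markers of ductal cancer lines 1 was higher and 3 lower, with a median of -0.17, and the list of 10 summed to 4595 and 4623 CPM in KO 6 h, against 5414 and 5425 CPM in KO 0 h. CDKN2A, counted among the 9, was at 0 in all 4 libraries and entered the test only through other libraries of the set. The higher one, SOX9, a ductal factor, stood after TMM scaling at 134 and 126 CPM in KO 6 h, against 19.2 and 17.6 CPM in KO 0 h (2.82, SE 0.15, adjusted p = 2.13e-18).

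Features of the gene models differed with the change. Of 279 tested protein-coding genes with 1 exon block in the deposited gene models, 48.0% were higher and 6.45% lower at KO 6 h. Of the 508 with 2 blocks 39.0% were higher and 12.01% lower. Of the 3906 with 6 to 10 blocks 19.6% were higher and 37.0% lower. The balance of the calls thus went from mostly higher at 1 or 2 blocks to mostly lower from 6 blocks upward. The next bins hold all genes tested, not only protein-coding ones. With these cut into 4 equal bins, the share called higher was 9.10% in the bin of shortest exonic length and 28.8% in the longest. In the bin of most abundant genes 66.3% were lower. These are descriptions of one fit, in which abundant genes are also called more often.

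**Figure D4:**
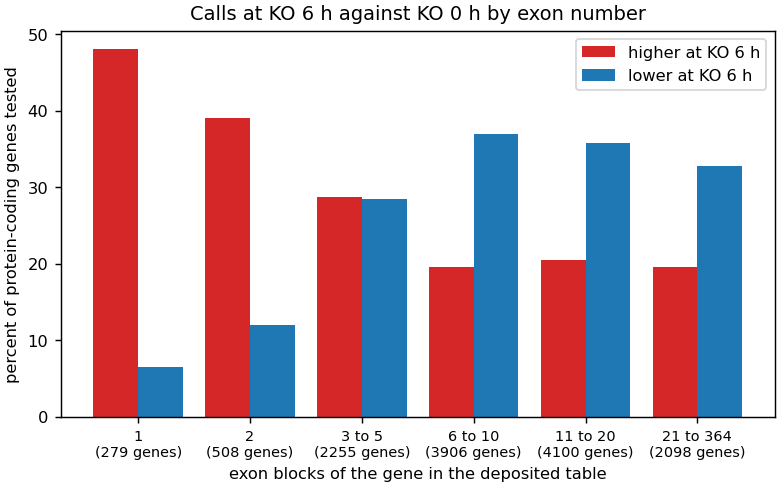
Percent of tested protein-coding genes called higher (red) or lower (blue) at KO 6 h against KO 0 h, by the number of exon blocks of the gene. The share called higher is 48.0% at 1 block and 19.6% at 6 to 10 blocks, and the share called lower is 6.45% and 37.0%.

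Against the other labelled KO times, which share the KO 6 h libraries, the picture was similar in kind. At KO 6 h 4024 genes were higher (22.7%) and 5339 lower (30.1%) than at KO 2 h. Relative to KO 8 h 4496 were higher (25.4%) and 5248 lower (29.6%). Relative to KO 4 h the counts were smaller, with 1843 higher (10.4%) and 3008 lower (17%). With DESeq2 size factors the balance did not turn. It was then 4183 higher and 5118 lower against 2 h, 1959 and 2627 against 4 h, and 4565 and 5157 against 8 h. It turned with counts scaled to ribosomal protein genes, to 10117 and 227, 4665 and 56, and 10727 and 342 in the same order. On the molecule scale it was 4573 and 2364, 980 and 1899, and 12465 and 41, so it did not turn against 4 h. By plain library size it was 5802 and 2912, 2534 and 1249, and 6335 and 3009. It also turned with no filter on low counts, to 4639 and 4112, 2112 and 1963, and 4975 and 4317. In a fit of the 10 KO libraries alone it was 4807 and 4303, 2307 and 2233, and 5202 and 4467. KO 6 h had the highest mean of the 5 labelled KO times for 31 of the 35 immediate early genes, for 19 of 20 ERK feedback genes and for all 12 Kruppel-like factors, where 30.3% of all genes tested did. It had the lowest mean for all 77 ribosomal protein genes, where 39.7% of all genes did.

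FOS averaged 0.841 ± 0.43, 0.976 ± 0.08, 1.06 ± 0.27, 65.6 ± 0.27 and 0.697 ± 0.23 CPM at KO 0, 2, 4, 6 and 8 h (SD, n = 2 each). MYC averaged 7.44 ± 0.81, 6.61 ± 1.3, 7.99 ± 0.69, 69.1 ± 3.1 and 8.79 ± 1.2 CPM at the same labels. For both genes only the 6 h label stood apart, and the other 4 labels lay within a narrow band. CCN1 differed, at 89.5 ± 7.6, 63.2 ± 3.4, 283 ± 2.2, 1298 ± 8.1 and 60.8 ± 2.0 CPM, with the 4 h label second. The summed level of the immediate early list was 3883 and 3891 CPM at KO 6 h, 1122 and 1119 CPM at KO 4 h, and 581 to 677 CPM in the 6 libraries of the other labels. Ribosomal protein genes ran the other way, at 27252 and 27114 CPM at KO 6 h, 33664 and 33107 CPM at KO 4 h, and 42381 to 50715 CPM in the other 6 libraries.

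By Pearson r of log2(CPM + 0.5) over the 10 KO libraries, the genes most like FOS were ARRDC3 (0.994), SETD1B (0.992), GLIS2 (0.992), TSC22D2 (0.991) and IER3 (0.988), and those most like MYC were SETD1B (0.992), FOXA2 (0.989), SOCS3 (0.987), PLK2 (0.987) and JUNB (0.986), among 9486 genes of at least 10 CPM. With 1 label apart from the other 4, such an r mostly records that the 6 h libraries stood high. IER3, an early-response survival gene, stood at 317 and 311 CPM in KO 6 h, against 23.5 and 22.9 CPM in KO 0 h. SOCS3, an inhibitor of cytokine receptors, stood at 74.8 and 82.6 CPM in KO 6 h, against 6.92 and 5.37 CPM in KO 0 h.

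The same labels in NC cells gave another result. Between NC 6 h and NC 0 h 553 genes were higher (3.12%) and 230 lower (1.3%). FOS averaged 7.45 ± 0.85 CPM in NC 6 h and 6.80 ± 0.59 CPM in NC 0 h, and MYC averaged 25.2 ± 2.6 CPM in NC 6 h and 25.8 ± 0.61 CPM in NC 0 h (SD, n = 2 each). The difference between KO and NC libraries in the change between the 0 h and 6 h labels was 6.12 for FOS (SE 0.23, adjusted p = 5.09e-23). It was 3.24 for MYC (SE 0.16, adjusted p = 1.15e-19). In this difference genotype, time labels and other differences between the lines cannot be told apart. Over all genes the difference between KO and NC was positive for 2072 (11.7%) and negative for 3615 (20.4%). That balance turned with other settings, to 5855 and 97 scaled to ribosomal protein genes, 2964 and 1622 by plain library size, 2586 and 2073 with no filter on low counts, and 1339 and 966 on the molecule scale. On the main scale it was positive for 28 of 35 immediate early genes and negative for 74 of 77 ribosomal protein genes.

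Among the NC labels 4 h had the highest summed level of the immediate early list, at 4488 and 4381 CPM. It was chosen in advance, with earlier results of these data known, to be set beside KO 6 h. The likeness of NC 2 h and NC 8 h to KO 6 h was not measured. NC 4 h against NC 0 h shares no library with KO 6 h against KO 0 h. Between NC 4 h and NC 0 h 4802 genes were higher (27.1%) and 4318 lower (24.4%), 2684 of them higher by a log2 change of at least 1 (15.2%). FOS averaged 527 ± 15 CPM in NC 4 h and 6.80 ± 0.59 CPM in NC 0 h, a log2 change of 6.27 beside 6.25 for KO 6 h. Of the 1784 genes higher by at least 1 at KO 6 h, 1369 were also higher by at least 1 at NC 4 h, which is 76.7% of the KO list and 51.0% of the NC list, and 8 were called lower at NC 4 h. Across the 17715 genes the log2 changes had a Pearson r of 0.50 and a Spearman rho of 0.60, given as a description since genes are not replicates. Immediate early genes had a median of 2.47 at NC 4 h and ribosomal protein genes of -0.63.

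**Figure D5:**
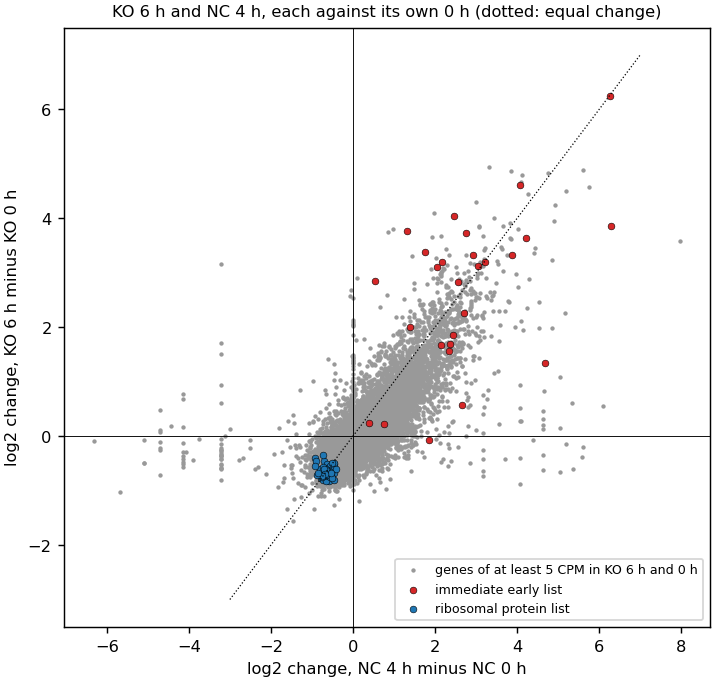
Log2 change of NC 4 h minus NC 0 h on the horizontal axis and of KO 6 h minus KO 0 h on the vertical axis, for genes of at least 5 CPM in the KO libraries compared, with the dotted line at equal change. FOS lies near that line at 6.27 and 6.25, and the ribosomal protein genes form a cluster below 0 on both axes.

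The changes were not equal. KO 6 h exceeded NC 4 h, each against its own 0 h, for 557 genes (3.14%) and fell short of it for 2264 (12.8%). These counts depend on the processing: they were 1087 and 1288 with DESeq2 size factors, 862 and 1527 by plain library size, 94 and 9048 on the molecule scale, and, with no filter on low counts, turned to 2104 and 867. IER3 exceeded it by 2.44 (SE 0.13, adjusted p = 3.20e-18), ZFP36 by 2.30 (SE 0.14, adjusted p = 5.23e-16) and JUNB by 1.57 (SE 0.18, adjusted p = 9.29e-09). CCN1 fell short by 2.44 on the log2 scale and CDC25A by 1.63. These examples do not stand for their lists. Of 35 immediate early genes 7 exceeded NC 4 h and 9 fell short of it. Of 28 G1/S genes 1 exceeded it and 22 fell short. Without KO 6 h replicate 2 the 557 genes became 360. The lines also differ apart from time: FOXA2 was at 0 counts in the NC 6 h, NC 4 h and NC 0 h libraries and at 44.6 ± 3.5 CPM in KO 6 h, and MMP1 was at 0.277 ± 0.14 CPM in NC 0 h, beside 80.1 ± 1.4 CPM in KO 0 h (SD, n = 2 each). Whether such differences between the lines bear on the changes with labelled time was not tested.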

How the data were processed

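PolyA RNA-seq tables of the 20 actinomycin D libraries were used. The submitters' processing notes list hg19 and the tools STAR, RSEM, Bowtie2 and deepTools, with no version or role. Per the file headers, the authors deposited counts per gene, from which all tests started, RPM, RPKM and log2 RPKM, and molecule values (a signal and its log2), used as an alternative scale. Within each library log2 molecules are a straight line of log2 RPKM; no source used here says what set that line. The reads behind the deposited reads-per-million values were recovered as the ratio of counts to RPM. The tables list 43682 genes, and 415 symbols were updated. All 37 mitochondrial genes had 0 counts throughout. Steady-state and crosslinking samples were not analysed here.

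Tests used the edgeR package, version 4.0.16, under R 4.3.3 (filterByExpr, TMM, robust quasi-likelihood F test, Benjamini-Hochberg adjustment over 17715 genes at 0.05) with 1 mean per genotype and labelled time over 20 libraries. Totals were 19177934 to 25768060 counts. SEs were obtained from the log2 change and F. The method was tested on simulated data. Libraries of a pair differed beyond counting noise (chi-square per degree of freedom 3.90 to 5.30), so no pair was taken for a single library; whether they are separate cultures is not shown by this. Same-numbered libraries of KO groups deviated together at a correlation of -0.04 to 0.07, so numbers were not treated as pairs.

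Named genes were KHSRP, FOS and MYC, the 10 largest rises and falls (adjusted p under 0.05, no overlap, at least 10 CPM at the higher label), up to 3 called members per list and direction, and the 5 genes most like FOS and MYC. The examples given for the difference from NC 4 h were picked from these after their values were seen. Members and lists were chosen with earlier results of these data known. Promoter windows came from RefSeq. Some genes that the rule names are not reported here.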

Additional observations from a re-analysis of the deposited data

Results flagged for a closer look

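Effects of the same labelled contrast, 6 h minus 0 h, were compared between KO and NC libraries for FOS, MYC and the 10 largest rises and falls by the interaction term of the edgeR fit. The difference, KO minus NC, passed an adjusted p of 0.05 for 20 of these 21 genes; CHAC1, at 2.62 with an adjusted p of 0.168, did not. Among the rises it was 6.12 for FOS, 5.14 for NUAK2, 4.96 for DDIT4, 4.80 for DUSP1, 4.70 for NFKBIA, 4.62 for EGR1, 4.33 for CSRNP1, 4.25 for MIR23AHG, 4.17 for ELF3 and 3.24 for MYC. Among the falls it was -2.38 for MMP1, -1.37 for ZNF460, -1.20 for MSRA, -1.16 for SLC25A25-AS1, -1.04 for AMH, -1.03 for LOC110467533, -0.87 for PCBD1, -0.83 for RPS10P19, -0.79 for CCDC78 and -0.65 for TMEM231. These genes were chosen for their change in KO, so their own size in KO is part of each difference. MMP1 was at or under 1 CPM in NC libraries on average, so its NC change rests on few counts. Over all 17715 genes the difference was positive for 2072 and negative for 3615.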

How the results depend on the processing

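The replicate block gave 3468 genes higher and 4936 lower at KO 6 h against KO 0 h and changed no call of the named genes. Leaving out 1 library at a time gave 2959 to 3037 higher and 4257 to 4393 lower for KO 6 h against 0 h, 3504 to 3553 and 4742 to 4830 against 2 h, 1289 to 1387 and 2142 to 2338 against 4 h, and 3984 to 4040 and 4710 to 4842 against 8 h. It gave 1770 to 1870 and 3107 to 3216 for the difference between KO and NC, and 360 to 537 and 1702 to 2013 for the difference from NC 4 h. Scaling to ribosomal protein genes gave 9236 higher and 100 lower against 0 h, 10117 and 227 against 2 h, 4665 and 56 against 4 h, 10727 and 342 against 8 h, and 5855 and 97 for KO against NC, and it turned KHSRP to 0.59. By plain library size the genes lower were 2521, 2912, 1249 and 3009 against 0, 2, 4 and 8 h and 1622 for KO against NC, 862 were higher than at NC 4 h, and KHSRP turned to 0.20. On the molecule scale 1776 were higher against 0 h, 2364 lower against 2 h, 980 higher and 1899 lower against 4 h, 12465 and 41 against 8 h, 1339 and 966 for KO against NC, and 94 and 9048 for the difference from NC 4 h. DESeq2 size factors gave 1087 and 1288 for that difference and the DESeq2 test 1212 and 1415. With no filter on low counts it was 2104 and 867, with 1963 lower against 4 h and 2073 lower for KO against NC. The same setting gave 3968 higher and 3640 lower against 0 h. The cause of these shifts was not tested. Scaled to ribosomal protein genes, 22 named genes lower on the main scale lost their call and KRT8 turned to 0.0011. No named gene other than KHSRP and KRT8 changed direction under the alternatives run. The time labels, the origin of the molecule scale and 2 libraries per group limit what these values show.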
